A study of Oryza sativa with 9 samples.

Results

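Followed here through young rice (*Oryza sativa*) panicles with and without a working OsMADS58 were 6 MADS-box genes that are better known from flowering time, branching and root growth than from the floral organs. They were taken by their identifiers from the deposited count table, which made 6 of its 56143 genes. The list of identifiers uses no measured value, although the genes were chosen with earlier results of these data known. OsMADS22 (LOC_Os02g52340), OsMADS47 (LOC_Os03g08754) and OsMADS55 (LOC_Os06g11330) make up the SVP clade, and OsMADS56 (LOC_Os10g39130) belongs to the SOC1 clade. OsMADS57 (LOC_Os02g49840) and OsMADS27 (LOC_Os02g36924) are usually placed in the AGL17 (ANR1-like) clade, so that the 2 clade names SVP and SOC1 cover 4 of the 6 genes. Each symbol is also listed by RefSeq for 1 rice gene.

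RNA was taken from panicles of about 1 cm, in which the study describes early stamen development. There were 3 wild-type samples of the japonica cultivar Nipponbare, 4 *osmads58* dSpm samples and 2 *osmads58* CRISPR samples. OsMADS58 is a C-class MADS gene of the inner floral organs. In *osmads58* dSpm a transposon sits in its second intron and leaves some transcript, and these plants are fertile. In *osmads58* CRISPR a Cas9 cut in the exon 2 gave a frameshift, and only homozygous, sterile plants were sampled, with panicles of several plants pooled in each of 2 independent transgenic lines. GEO labels both mutants as homozygous, and the samples are numbered here as in the labels (dSpm 1, 2, 4b and 5b). What the suffix b stands for is not given in the sources used here.

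SVP and SOC1 are best known from Arabidopsis, where SVP-type proteins hold back flowering, SOC1 gathers flowering signals in the shoot apex, and both act early in the floral meristem before organ identity genes take over. In rice the SVP-type genes are tied to meristem identity and to a damped response to brassinosteroids. AGL17-type genes act mostly outside the flower, in roots and in side shoots, and in rice OsMADS57 and OsMADS27 are targets of the microRNA miR444, whose precursors are transcribed from the opposite strand of such genes.

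Total counts ran from 65192657 to 83042245 per sample (median 77715447). Levels are given as CPM, the count relative to the library size after scaling by edgeR's TMM factors, and the fold changes come from 1 edgeR quasi-likelihood fit of the 9 samples in which 27251 genes passed the filter on low counts, all 6 MADS genes among them. OsMADS58 itself stood at 3.29 to 8.38 CPM in the wild type and at 0.719 to 2.097 CPM in dSpm. In CRISPR it was at 0.270 and 0.471 CPM. By edgeR the difference passed in CRISPR against the wild type (adjusted p = 0.0153). It did not pass by edgeR in dSpm against the wild type (adjusted p = 0.118) or in CRISPR against dSpm (adjusted p = 0.0638). The 9 floral organ loci used to check the tissue were all detected, and their summed level ran from 533 to 1438 CPM in the wild type, from 384 to 1132 CPM in dSpm and from 315 to 386 CPM in CRISPR. Wild type 1 at 1438 CPM and dSpm 2 at 384 CPM stood apart from the other samples of their groups in that sum. The 2 groups of mutant samples are each compared with the same wild-type samples below, so the comparisons are not independent of each other.

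None of the 6 genes passed edgeR's test in any of the 3 comparisons, where a call needs an adjusted p under 0.05 together with a log2 fold change beyond 1 in either direction. OsMADS27 came nearest, at 2.67 times its wild-type level in dSpm and near its wild-type level in CRISPR, and DESeq2 called that difference. OsMADS56 was 1.46 times as high in dSpm as in the wild type, with every dSpm sample above every wild-type sample. OsMADS22 was lower in 3 of 4 dSpm samples and in both CRISPR samples than in any wild-type sample. OsMADS47 and OsMADS55 varied widely within dSpm and the wild type. They lay higher in both CRISPR samples than in any wild-type sample without passing the test. Of all tested genes, 54.6% did not overlap between CRISPR and the wild type, and 15.1% between dSpm and the wild type. OsMADS55 ran opposite to the floral organ loci across the samples.

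**Figure D1:**
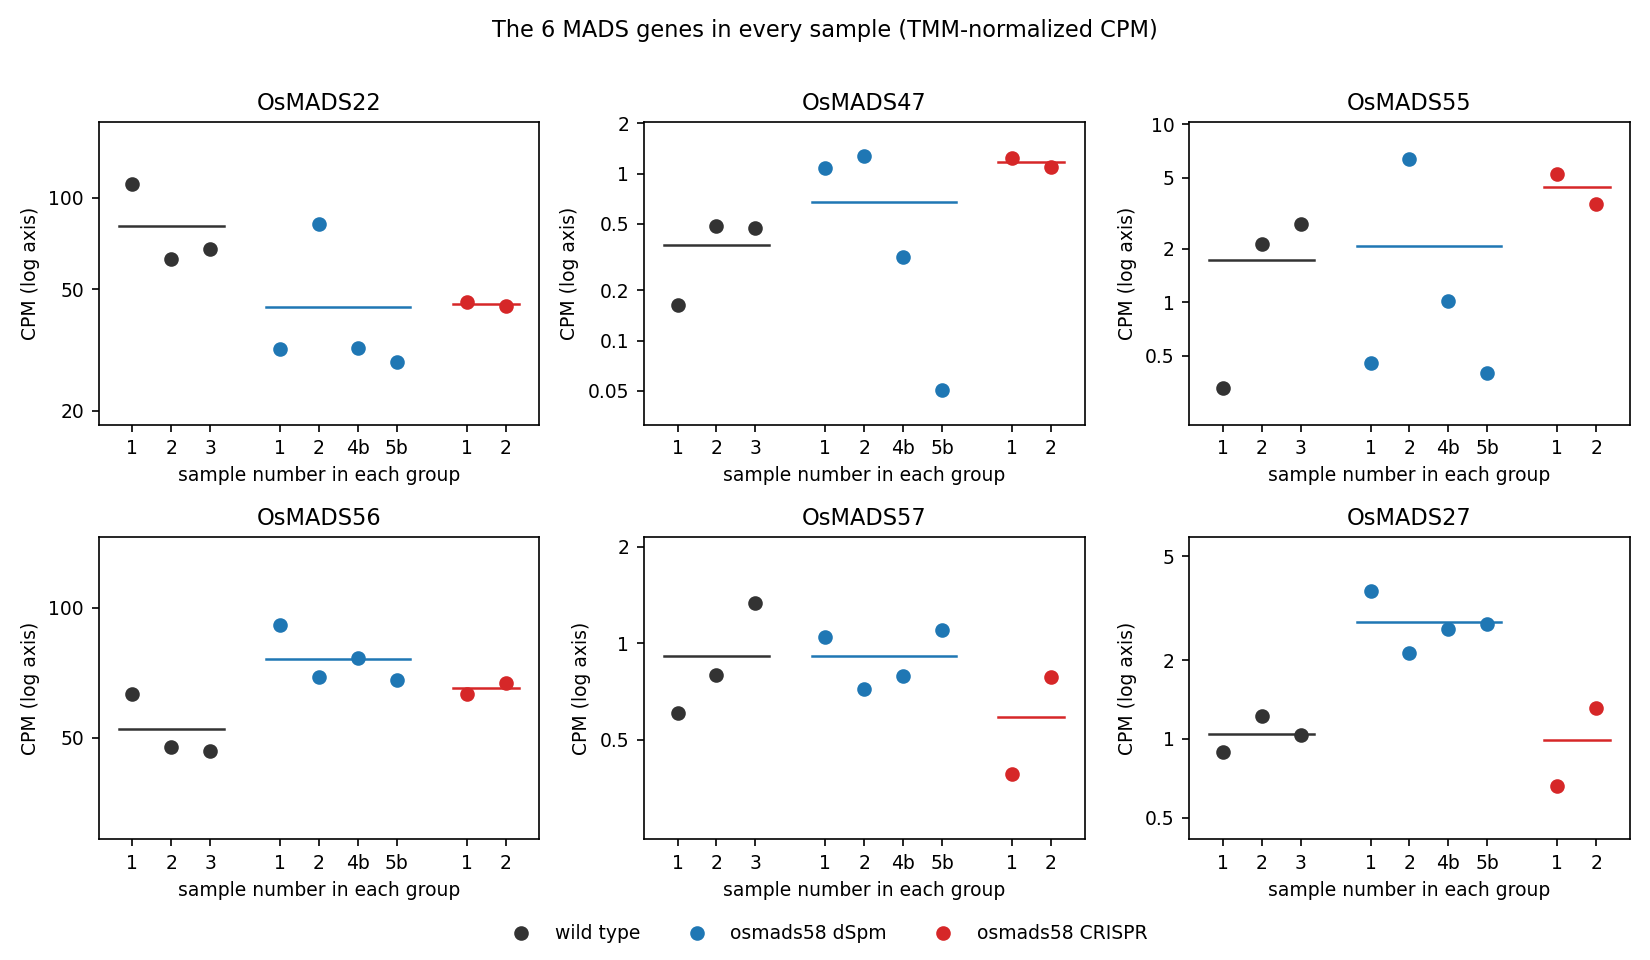
Level of each of the 6 MADS genes in every sample, as TMM-normalized CPM on a log axis, with 1 point per sample and a line at each group's mean. All 4 dSpm samples of OsMADS27 lie above the wild-type and CRISPR samples, while dSpm 2 sits far above the other dSpm samples for OsMADS22 and OsMADS55.

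OsMADS22, an SVP-type gene whose forced expression disturbs floral meristems in rice, was at 110.6, 63.1 and 67.9 CPM in the wild-type samples. In dSpm 1, 2, 4b and 5b it was at 31.9, 81.7, 32.2 and 28.8 CPM, and in CRISPR at 45.6 and 44.3 CPM. Thus 3 dSpm samples lay close together and below the whole wild type, the remaining one lay inside the wild-type range, and both CRISPR samples lay below the wild type. The wild-type mean was 80.5 ± 26.1 CPM (SD, n = 3), the dSpm mean 43.7 ± 25.4 CPM (SD, n = 4) and the CRISPR mean 44.9 ± 0.971 CPM (SD, n = 2). Against the wild type the log2 fold change was -0.88 (standard error 0.37) in dSpm and -0.84 (standard error 0.46) in CRISPR, with edgeR adjusted p of 0.272 and 0.282.

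The outcome in dSpm depended on dSpm 2. Without that sample the log2 fold change of OsMADS22 was -1.40 and edgeR called it (edgeR adjusted p = 0.0114). With dSpm 4b and 5b as the only dSpm samples it was -1.43 (edgeR adjusted p = 0.0105). With dSpm 1 and 2 as the only dSpm samples it was -0.52 and was not called. Both calls left out the sample that went against the difference. Over all genes edgeR called 394 with all 9 samples and 2491 with dSpm 4b and 5b only. The mutants could not be told from each other at this spread, since CRISPR differed from dSpm by 0.04 on the log2 scale with a 95% interval from -0.91 to 0.99. Whether fewer cells of a type or less RNA per cell underlie a lower level cannot be told apart in panicle RNA, here or for the other genes.

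OsMADS55 acts with OsMADS47 to restrain brassinosteroid responses in rice. It was at 0.329, 2.12 and 2.76 CPM in the wild-type samples, at 0.457, 6.42, 1.02 and 0.403 CPM in dSpm 1, 2, 4b and 5b, and at 5.28 and 3.57 CPM in CRISPR. These levels rest on 24 to 420 counts per sample. The dSpm and wild-type samples overlapped, with wild type 1 below all dSpm samples and dSpm 2 above all wild-type samples, and both CRISPR samples lay above the wild type but below dSpm 2.

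The highest sample of OsMADS55 was 19.5 times the lowest. Within the wild type, samples 2 and 3 averaged 7.42 times sample 1, and within dSpm, sample 2 was 6.32 times the next. The wild-type mean was 1.74 ± 1.26 CPM (SD, n = 3), the dSpm mean 2.07 ± 2.91 CPM (SD, n = 4) and the CRISPR mean 4.43 ± 1.21 CPM (SD, n = 2). The log2 fold change was 0.25 (standard error 1.01) in dSpm and 1.35 (standard error 1.17) in CRISPR, with edgeR adjusted p of 0.937 and 0.516. In dSpm its sign turned without dSpm 2, to -1.51 (edgeR adjusted p = 0.299), so no direction can be given for that line.

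OsMADS47, also known as OsMDP1 and likewise a brake on brassinosteroid responses, was scarce. Its counts were 12, 36 and 37 in wild type 1 to 3, 80, 83, 25 and 4 in dSpm 1, 2, 4b and 5b, and 92 and 98 in CRISPR. The 4 counts of dSpm 5b have an exact Poisson interval from 1.09 to 10.2 counts at 95%, which covers counting error only. In CPM the gene stood at 0.165, 0.484 and 0.471 in the wild type, at 1.08, 1.27, 0.317 and 0.0504 in dSpm, and at 1.24 and 1.0999 in CRISPR. Samples dSpm 1 and 2 thus reached the level of CRISPR, while dSpm 4b lay inside the wild-type range and dSpm 5b below it.

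The mean of OsMADS47 over dSpm 1 and 2 was 6.37 times that over dSpm 4b and 5b. On the log2 scale it differed from the wild type by 0.85 (standard error 0.92) in dSpm and by 1.64 (standard error 1.06) in CRISPR, with edgeR adjusted p of 0.711 and 0.368. With dSpm 4b and 5b only, the value in dSpm was -1.06 (edgeR adjusted p = 0.459). Both CRISPR samples were above all wild-type samples. Summed over 8 meiocyte loci, dSpm 4b and 5b were at 606 and 628 CPM and the other 7 samples at 244 to 405 CPM. In dSpm 4b, LOC_Os03g58600 made up 272 CPM and LOC_Os03g54084 made up 218 CPM of it. The sum therefore follows mostly these loci and says little about the others listed. Over the 9 samples OsMADS47 ran against that sum with r of -0.80 (exact permutation p = 0.0103, adjusted 0.0822 over 24 relations with marker sums). Its rho was -0.80 (exact permutation p = 0.0138, adjusted 0.103). Without dSpm 4b and 5b, the 2 samples farthest from the median, r kept its sign at -0.65 over 7 samples (exact permutation p = 0.119). With so few samples, that p does not show how far the relation rests on those left out.

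**Figure D2:**
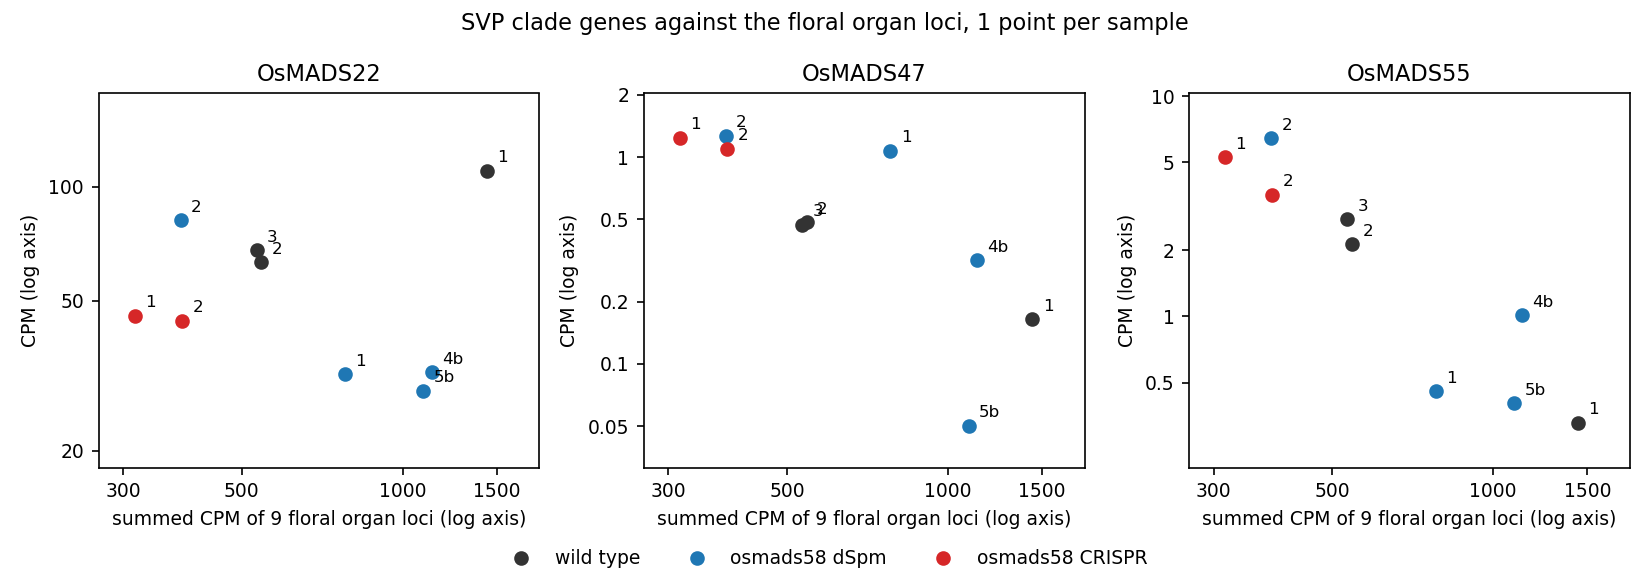
Level of the 3 SVP clade genes (CPM, log axis) against the summed level of 9 floral organ loci (CPM, log axis), with 1 point per sample, coloured by group and numbered as in the labels. OsMADS55 falls as the floral sum rises, from CRISPR 1 and dSpm 2 on the left to wild type 1 on the right, whereas OsMADS22 shows no such slope.

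Because the 9 samples differed in the summed level of the floral organ loci within groups as well as between them, each of the 6 genes was set against that sum. For OsMADS55 Pearson's r of the log2 values was -0.92 (exact permutation p = 0.00114, adjusted over 24 relations 0.0273) and Spearman's rho was -0.93 (exact permutation p = 0.00075, adjusted 0.0180). The 24 relations are those of the 6 genes with the floral organ loci and with loci of green tissue, meiocytes and tapetum. Without wild type 1 and dSpm 4b, the samples farthest from the median floral sum, r was -0.95 over 7 samples, and without dSpm 4b and 5b it was -0.94. The 4 samples lowest in OsMADS55, which are wild type 1 and dSpm 1, 4b and 5b, were the 4 samples highest in the floral sum.

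Within the groups, which are too small for a test, wild type 1 had the highest floral sum and the lowest OsMADS55 of its group, dSpm 2 the lowest sum and the highest OsMADS55, and CRISPR 1 the lower sum and the higher OsMADS55. The other dSpm samples did not follow that order, since dSpm 4b had the highest floral sum of its group and the second highest OsMADS55. Of the 22333 tested genes detected in every sample, the floral loci left out, 0.345% had an r at least as large in either direction. The relation of OsMADS55 was the strongest of the 24 examined, so this share only describes it and is no separate support. The points share their libraries and the 3 groups, and both CRISPR samples were among the 3 lowest in the floral sum, so the genotype and the floral sum cannot be told apart there. The permutation moved samples freely across the 3 groups. A difference between genotypes in both values can therefore lower its p, which takes no account of genotype. Of the 9 floral loci edgeR called 0 in each comparison, and DESeq2 called 0 in dSpm and 3 in CRISPR against the wild type and 3 in CRISPR against dSpm.

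OsMADS47 had the same sign, with r of -0.78 (exact permutation p = 0.00992, adjusted 0.0822) and rho of -0.87 (exact permutation p = 0.00451, adjusted 0.0541), and did not pass after adjustment. OsMADS22 showed r of -0.10, although it belongs to the same clade. No other of the 24 relations passed after adjustment, and the smallest adjusted p among them was 0.0822 for Pearson's r.

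OsMADS56, a SOC1-type gene that delays flowering under long days when overexpressed in rice, was the steadiest of the 6. It was at 63.0, 47.4 and 46.4 CPM in the wild-type samples, at 91.1, 69.0, 76.4 and 67.9 CPM in dSpm 1, 2, 4b and 5b, and at 63.2 and 66.7 CPM in CRISPR. Every dSpm sample lay above every wild-type sample, and the CRISPR samples lay between, with CRISPR 1 only just above wild type 1. The coefficient of variation over all samples was 20.8%, below the median of 36.6% over all tested genes, and for the other 5 genes it ran from 33.6% for OsMADS57 to 89.9% for OsMADS55.

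The wild-type mean of OsMADS56 was 52.3 ± 9.29 CPM (SD, n = 3), its dSpm mean 76.1 ± 10.7 CPM (SD, n = 4) and its CRISPR mean 65.0 ± 2.51 CPM (SD, n = 2). The log2 fold change in dSpm was 0.54 with a 95% interval from 0.17 to 0.91, and it did not pass (edgeR adjusted p = 0.148). In CRISPR it was 0.31 with an interval from -0.12 to 0.75 (edgeR adjusted p = 0.348). The difference kept its sign in all 20 alternative analyses of each comparison with the wild type, from 0.43 to 0.70 in dSpm and from 0.23 to 0.47 in CRISPR. The 9 loci of green tissue, 8 of them detected and 1 at 0, were also lowest in the wild type but highest in CRISPR, with summed levels of 97.5 to 106 CPM in the wild type, 107 to 144 CPM in dSpm and 125 to 152 CPM in CRISPR, and r with OsMADS56 was 0.58 (exact permutation p = 0.0998, adjusted 0.342).

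OsMADS27, which in rice supports nitrate-dependent root growth and salt tolerance, had all its dSpm samples above all samples of both other groups. The same held for OsMADS56 with the TMM factors only. Among all tested genes, dSpm and the wild type did not overlap for 15.1%, and CRISPR and dSpm for 40.4%. The share of genes with dSpm above both groups was not counted. OsMADS27 was at 0.892, 1.22 and 1.03 CPM in the wild-type samples and at 3.70, 2.13, 2.64 and 2.74 CPM in dSpm 1, 2, 4b and 5b. In CRISPR it was at 0.660 and 1.31 CPM. The lowest dSpm sample was above the highest of both other groups, and the wild type and CRISPR overlapped.

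Counts of OsMADS27 were 65 to 91 in the wild type, 139 to 275 in dSpm, and 49 and 117 in CRISPR. The means were 1.05 ± 0.166 CPM (SD, n = 3), 2.80 ± 0.655 CPM (SD, n = 4) and 0.987 ± 0.462 CPM (SD, n = 2). Relative to the wild type, dSpm was 2.67 times as high with a 95% interval from 1.49 to 4.78, a log2 fold change of 1.42 (standard error 0.38). With edgeR this did not pass (adjusted p = 0.102), and with DESeq2 it was called (log2 fold change 1.38, standard error 0.38, adjusted p = 0.00769). Its sign held in all 20 alternatives, with log2 fold changes from 1.15 to 1.54, and leaving out any 1 sample did not make edgeR call it.

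CRISPR was below dSpm by a similar amount. Its log2 fold change against dSpm was -1.50 (standard error 0.44) with a 95% interval from -2.49 to -0.52, an edgeR adjusted p of 0.0727 and a DESeq2 adjusted p of 0.00713. Against the wild type, CRISPR differed by -0.09 with an interval from -1.06 to 0.89, which leaves room for a change of up to about the size at which genes were called. The difference between the mutant lines is the test of the contrast between their effects, and by edgeR it did not pass. Reads of OsMADS27 or OsMADS57 and of a transcript from the opposite strand may not be told apart, since the study describes the libraries as strand-specific but the options it gives for mapping and counting name no strand setting.

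OsMADS57, which in rice is tied to branching through the strigolactone receptor D14, did not differ detectably in any comparison. It was at 0.604, 0.793 and 1.34 CPM in the wild-type samples, at 1.05, 0.719, 0.787 and 1.095 CPM in dSpm 1, 2, 4b and 5b, and at 0.391 and 0.786 CPM in CRISPR, on 29 to 105 counts. The 3 groups overlapped. The wild-type mean was 0.912 ± 0.381 CPM (SD, n = 3) and the dSpm mean 0.912 ± 0.187 CPM (SD, n = 4), and the log2 fold change of 0.00 had a 95% interval from -1.09 to 1.097. In CRISPR the mean was 0.588 ± 0.279 CPM (SD, n = 2), and the log2 fold change of -0.63 had an interval from -1.96 to 0.71 (edgeR adjusted p = 0.554). Leaving out 1 sample moved the value in CRISPR to between -1.21 (without CRISPR 2) and -0.21 (without CRISPR 1), and without wild type 3 it was -0.25. A 2-fold fall lay within the interval of both comparisons, and a 2-fold rise within that of dSpm only.

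**Figure D3:**
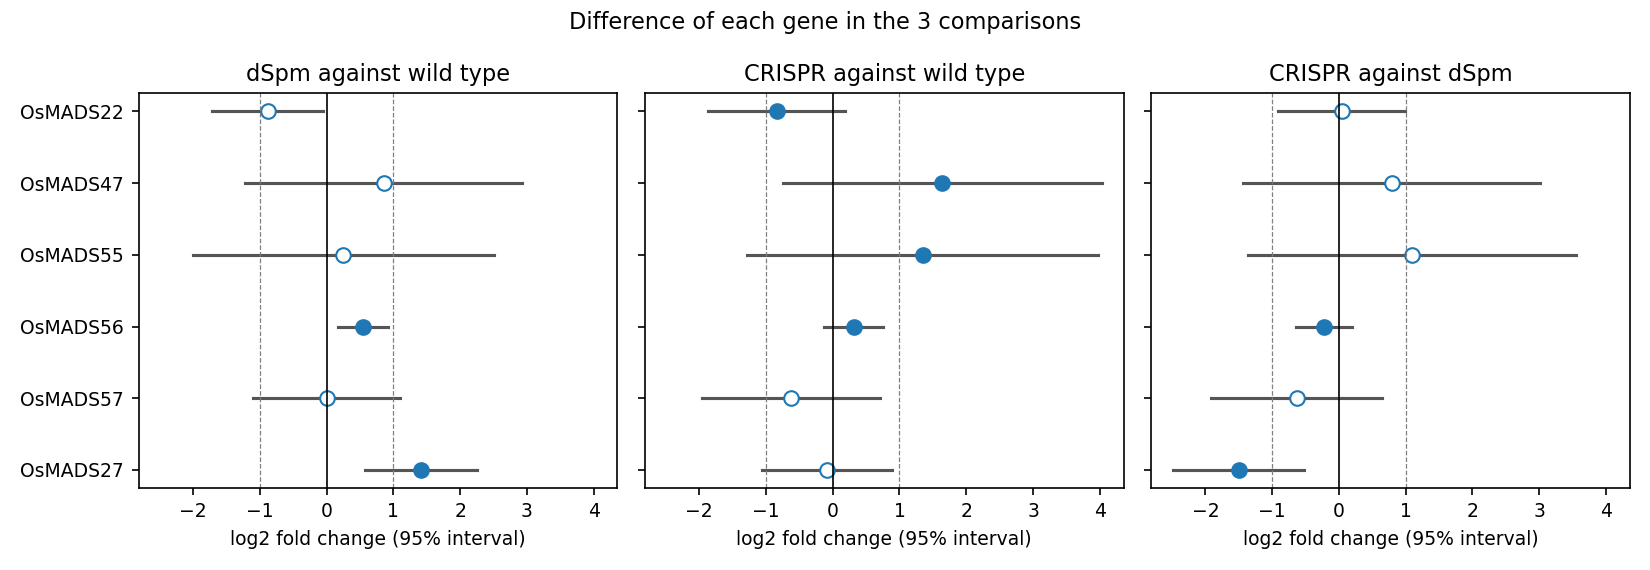
Log2 fold change of each gene in the 3 comparisons from edgeR (axis in log2 units, bars are 95% intervals, dashed lines at -1 and 1, filled points where the groups did not overlap in CPM). Intervals leave out 0 for OsMADS22, OsMADS56 and OsMADS27 in dSpm against the wild type and for OsMADS27 in CRISPR against dSpm.

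For dSpm against the wild type, edgeR called 0 of the 6 genes while 1.45% of all tested genes were called. At an unadjusted edgeR p under 0.05 there were 3 of 6 (OsMADS22, OsMADS56 and OsMADS27) against 16.6% of all genes, and DESeq2 called 1 of 6 (OsMADS27) against 4.56%. The groups did not overlap for 2 of 6, OsMADS56 and OsMADS27, both higher in dSpm, against 15.1% of all genes. Of the 6 fold changes 5 were above 0, with a median of 0.40 on the log2 scale where the median of all tested genes was 0.06.

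For CRISPR against the wild type, edgeR called 0 of 6 (5.55% of all genes), 0 of 6 had an unadjusted edgeR p under 0.05 (25.7% of all genes) and DESeq2 called 0 of 6 (11.4% of all genes). The groups did not overlap for 4 of 6, with OsMADS22 lower and OsMADS47, OsMADS55 and OsMADS56 higher in CRISPR. With only 2 CRISPR samples that was so for 54.6% of all genes, so the 4 of 6 is near the background. The median log2 fold change of the 6 was 0.11, against 0.00 for all genes.

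For CRISPR against dSpm, edgeR called 0 of 6 (5.36% of all genes), and OsMADS27 was the 1 of 6 with an unadjusted edgeR p under 0.05 (23.7% of all genes) and the 1 of 6 called by DESeq2 (10.1% of all genes). The groups did not overlap for OsMADS56 and OsMADS27, both lower in CRISPR, which makes 2 of 6 against 40.4% of all genes. For OsMADS56 they overlapped once RLE or upper-quartile factors, or none, took the place of the TMM factors. The median log2 fold change was -0.09, against -0.05 for all genes.

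**Figure D4:**
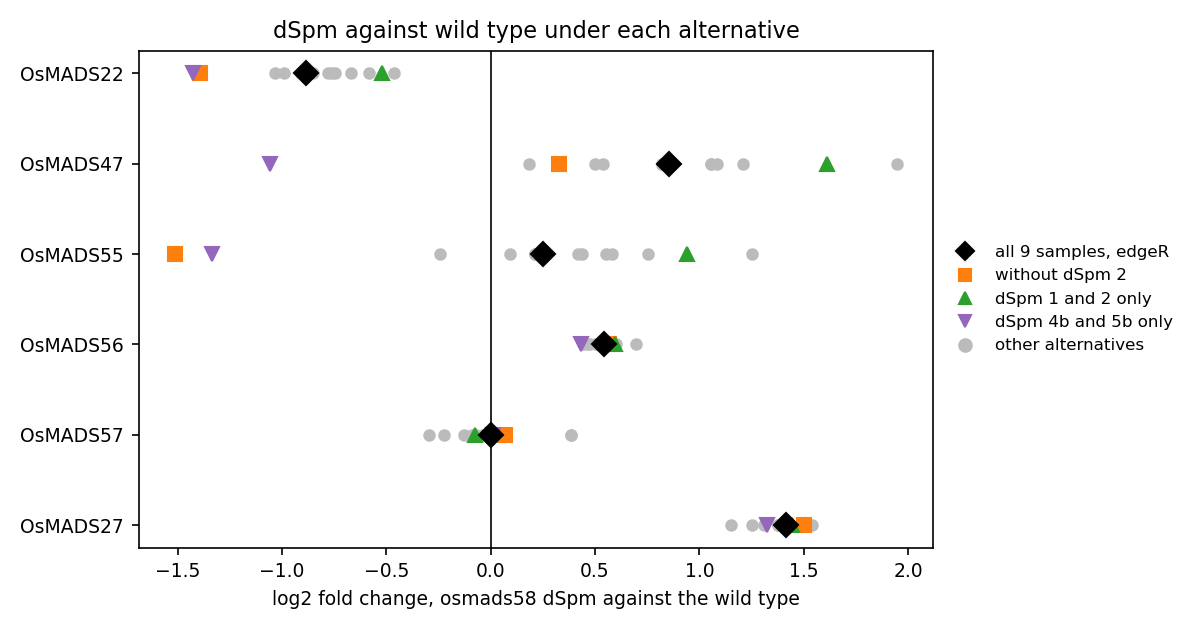
Log2 fold change of each gene in dSpm against the wild type under all 9 samples (diamonds) and under each alternative, with the alternatives that change the dSpm samples marked by shape. OsMADS27 and OsMADS56 keep their sign throughout, OsMADS22 moves to -1.40 without dSpm 2, and OsMADS47 and OsMADS55 fall on both sides of 0.

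Genes tied to the 6 in the literature were read from the same fit as lists of loci. The lists were paired with identifiers from general knowledge and not from an annotation in the files, so the loci are given by identifier alone. Of 17 flowering and meristem identity loci, 12 had enough counts, and edgeR called 0 of the 12 in each of the 3 comparisons, with 3, 4 and 4 at an unadjusted p under 0.05 for dSpm and CRISPR against the wild type and CRISPR against dSpm, where all genes gave 16.6%, 25.7% and 23.7%. By edgeR's full rule the shares over all genes were 1.45%, 5.55% and 5.36% in the same order, and these hold as the background of the other lists too. Of 4 TFL1-like loci and of 4 branching and gibberellin loci, edgeR called 0 in each comparison, with 1 locus of each list at an unadjusted p under 0.05 each time. DESeq2 called 1 of the 12, LOC_Os03g03100 in CRISPR against dSpm, where edgeR gave a log2 fold change of 1.48 (adjusted p = 0.0511), and 1 TFL1-like locus, LOC_Os02g32950 in CRISPR against the wild type, where edgeR gave -2.75 (adjusted p = 0.110). It called 0 of the branching and gibberellin loci.

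The 4 edgeR calls in the 3 remaining pathway lists were all in CRISPR and all downward, with LOC_Os01g10040 called in both comparisons of CRISPR. Over all genes, downward calls also outnumbered upward ones there. They were 957 against 555 in CRISPR against the wild type, and 1070 against 392 in CRISPR against dSpm. Among the 6 brassinosteroid loci listed beside the SVP clade, LOC_Os01g10040 was at 26.2 to 46.6 CPM in the wild type, at 15.1 to 30.6 CPM in dSpm, and at 4.38 and 3.31 CPM in CRISPR. Its 2 CRISPR samples lay far below all others, with log2 fold changes of -3.16 against the wild type (edgeR adjusted p = 0.0057) and -2.39 against dSpm (edgeR adjusted p = 0.00854). By edgeR the other 5 of the 6 did not pass in either comparison, while DESeq2 also called LOC_Os06g03710 in CRISPR against the wild type, where edgeR gave a log2 fold change of 3.47 (adjusted p = 0.0579). In dSpm against the wild type edgeR and DESeq2 called 0 of the 6, with 1 at an unadjusted edgeR p under 0.05.

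Among the 4 other AGL17 clade loci, LOC_Os04g38780 was at 1.77 to 3.27 CPM in the wild type, at 1.98 to 4.91 CPM in dSpm, and at 0.674 and 0.752 CPM in CRISPR. It fell in CRISPR against dSpm, with a log2 fold change of -2.21 (edgeR adjusted p = 0.0316), and against the wild type its value of -1.84 did not pass by edgeR (adjusted p = 0.0568) but was called by DESeq2. Like OsMADS27, this locus was thus lower in CRISPR than in dSpm, but unlike OsMADS27 its dSpm samples overlapped the wild type. Of the 3 nitrate transport loci with enough counts among the 4 listed beside OsMADS27, LOC_Os01g50820 was also lower in CRISPR than in dSpm, with a log2 fold change of -1.31 (edgeR adjusted p = 0.0453) and levels of 2.32 and 3.65 CPM against 5.51 to 9.83 CPM, and DESeq2 called it in CRISPR against the wild type as well. In dSpm against the wild type, where OsMADS27 stood higher, edgeR called 0 of these 4 AGL17 clade loci and 0 of the 3 nitrate transport loci, 0 of both lists had an unadjusted p under 0.05, and DESeq2 called 0 of both.

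The marker lists set beside the 6 genes held 3 edgeR calls, with 8 green tissue, 8 meiocyte and 3 tapetum loci tested beside the floral ones. In CRISPR against the wild type the green tissue locus LOC_Os12g08770 and the meiocyte locus LOC_Os04g37960 rose, with log2 fold changes of 1.96 (edgeR adjusted p = 0.0266) and 1.52 (edgeR adjusted p = 0.0493). The tapetum locus LOC_Os04g51070 was called lower in CRISPR than in dSpm (edgeR adjusted p = 0.0488), with 12 to 80 counts in the dSpm samples and 0 in all others. DESeq2 called these loci too, LOC_Os12g08770 and LOC_Os04g37960 also against dSpm and LOC_Os04g51070 also in dSpm against the wild type. In CRISPR against the wild type it further called LOC_Os03g56670 and LOC_Os03g01590. There edgeR gave log2 fold changes of 1.05 (adjusted p = 0.0994) and 3.34 (adjusted p = 0.0993).

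The genes whose pattern over the 9 samples was most like that of each of the 6 were found by Pearson's r of log2 CPM among the 13241 tested genes whose mean reached 10 CPM. OsMADS22 was most like LOC_Os01g57840 (r = 0.98), which was at 19.6 to 31.2 CPM in the wild type and 24.6 CPM in dSpm 2 but at 5.06 to 6.45 CPM in the other dSpm samples and 9.79 and 10.99 CPM in CRISPR. The sample dSpm 2 sided with the wild type for that locus as it did for OsMADS22. That follows from choosing the locus by its r over the same samples. Next came LOC_Os02g08180 (r = 0.98).

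OsMADS27 was most like LOC_Os08g44820 and LOC_Os03g19560 (r of 0.97 and 0.96). The latter was at 37.0 to 80.5 CPM in dSpm against 6.44 to 7.53 CPM in the wild type and 4.08 and 5.84 CPM in CRISPR, with dSpm 1 highest and dSpm 2 lowest of the dSpm samples as for OsMADS27. OsMADS55 was most like LOC_Os06g09450 and LOC_Os09g31430 (r of 0.97 and 0.95), and the former was at 357 to 423 CPM in wild type 1 and dSpm 1, 4b and 5b but at 629 to 714 CPM in the other 5 samples. The same 4 samples were the low ones for both. Shared orders of this kind follow from the choice by r over these samples.

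OsMADS56 was most like LOC_Os02g10070 and LOC_Os06g45110 (r of 0.97 and 0.96), OsMADS47 like LOC_Os06g36490 and LOC_Os12g39100 (r of 0.94 and 0.90), and OsMADS57 like LOC_Os11g09160 and LOC_Os06g22850 (r of 0.87 and 0.83). The points share the 3 groups and their libraries, and no p was computed. Ranked by Spearman's rho instead, 1 of these 12 genes, LOC_Os01g57840, was again among the 2 most like its MADS gene.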

How the data were processed

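RNA-seq reads of 9 panicle samples were mapped by the authors with Hisat 2.1.0 on the MSU v7.0 assembly and quantified with Stringtie 1.3.3b. They deposited estimated counts per gene as whole numbers, not normalized, and tested them with DESeq2. How coverage became counts is not given in the sources used here. Among counts of 1 to 40, 37.2% to 40.7% per sample were multiples of 4, against 25% if evenly spread, so intervals from counting error may be too narrow. A level of 3 counts is 0.0337 to 0.0459 CPM.

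The deposited counts entered edgeR 4.0.16 under R 4.3.3 (filterByExpr by group, TMM, glmQLFit and glmQLFTest, 3 group means). P-values were adjusted by the Benjamini-Hochberg method over 27251 genes, and a call needed an adjusted p under 0.05 and a log2 fold change beyond 1 in size. Standard errors were derived from the F statistic. A prior count of 2 was used for r between genes. DESeq2 1.42.0, other scalings and filters, the groups compared alone, a replicate block, each sample left out, each pair of dSpm samples, counts divided by 4 and other thresholds were alternatives. Relations with marker sums used log2 CPM and exact two-sided permutation over samples, regardless of group. The procedures were tested on simulated data.

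The 6 genes, the lists and the tests were chosen with earlier results of these data known. Named were the 6 genes, OsMADS58 and the genes of the lists. The 2 genes most like each of the 6 at a mean of 10 CPM or more were named too. Of the lists, values were given only for loci called by edgeR or DESeq2 and for the 2 largest meiocyte loci. The relation to marker sums and its background among all genes were added after the data had been seen. Samples are separate plants or lines by the study's methods. No 2 libraries held identical values. Levels were not compared between genes, because no transcript lengths were used here. RefSeq was used for names only (assembly ASM3414082v1).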

Additional observations from a re-analysis of the deposited data

Results flagged for a closer look

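OsMADS22 at 81.7 CPM and OsMADS55 at 6.42 CPM in dSpm 2 lay far from the other 3 dSpm samples by Dixon's criterion, which flags about 1 in 20 groups by chance. The dSpm group was the only one large enough to be examined, for each of the 6 genes. In the same sample the 9 floral organ loci summed to 384 CPM, against 780 to 1132 CPM in the other dSpm samples, and OsMADS58 was at 0.719 CPM, against 1.79 to 2.097 CPM. The part of either in the levels of OsMADS22 and OsMADS55 was not tested.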

How the results depend on the processing

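Of the 360 values of single genes under alternatives, 333 kept their sign and their side of the call, 23 changed sign and 4 became called. With DESeq2 the number of the 6 genes called was 1 in dSpm against the wild type and 1 in CRISPR against dSpm (OsMADS27 both times), and with dSpm 4b and 5b only it was 1 in dSpm against the wild type (OsMADS22). Leaving out single samples gave 0 to 1 called there. Under the replicate block 0 were called in each comparison. The groups share only 2 numbers. Correlations of deviations at the same number were 0.31 and 0.13 between the wild type and dSpm, and -0.06 to 0.01 with CRISPR. Between wild type 1 and dSpm 2, 4b and 5b they were -0.19, -0.12 and -0.09. Wild type 3 and dSpm 2, with unlike numbers, also had 0.13. The deviations of 2 CRISPR samples mirror each other, so whether the numbers pair the samples cannot be told. In CRISPR against dSpm, OsMADS22 turned to -0.30 under the block, to -0.30 with dSpm 1 and 2 only and to -0.082 without wild type 1 and dSpm 1, and ranged from -0.082 to 0.57 with single samples left out. In dSpm against the wild type, OsMADS57 turned to -0.039 with DESeq2, -0.039 with RLE factors, -0.029 with only the 2 groups, -0.075 with dSpm 1 and 2 only and -0.30 without wild type 1 and dSpm 1 (leave-out range -0.22 to 0.38). With dSpm 4b and 5b only, OsMADS47 turned to -1.06 and OsMADS55 to -1.34 (leave-out range of the latter -1.51 to 0.75). OsMADS27 in CRISPR against the wild type ranged from -0.66 to 0.33. The cause of these shifts was not tested. Of the 12 most similar genes, Spearman's rho kept 1.

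Over all genes, calls in dSpm against the wild type numbered 394, 1243 with DESeq2, 152 with the block, 110 with dSpm 1 and 2 only, 2491 with dSpm 4b and 5b only and 65 to 855 with single samples left out. In CRISPR against the wild type they numbered 1512, 3112 with DESeq2 and 31 to 2536, and in CRISPR against dSpm 1462, 2751 and 78 to 1650. Without 1 CRISPR sample, the lone sample was assumed to vary like the other groups. The order of the 6 genes by level per length was not run. Counts of 4 to 98 for OsMADS47 and 29 to 105 for OsMADS57 limit what could be detected for them.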
